A study of Ambystoma mexicanum with 61 samples.

Results

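Metamorphosed and neotenic axolotl tails were compared in 4 bulk RNA-seq libraries, which were chosen by their labels from 61 libraries of the axolotl cell landscape. All animals were of the d/d strain and about 1 year old. Neotenic axolotls gave 2 tail libraries (neotenic tail 1 and 2) and had not been induced to metamorphose. Metamorphosed axolotls gave the other 2 (metamorphosed tail 1 and 2) and had received 50 nM thyroxine (T4) for about 12 days, followed by 2 weeks of maintenance. The study profiled tissues of both states in order to find which cell types and genes change when metamorphosis is induced, and describes the bulk libraries as coming from 2 animals per state. A bulk library of tail can mix skin, fin, muscle, cartilage, spinal cord and vessels, in which fewer cells of a type and less RNA per cell cannot be told apart. T4 treatment, maintenance and metamorphosis itself differ together between the states and cannot be told apart.

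The axolotl normally stays in its larval form, with gills, a finned tail and a thin wet skin, for its whole life. Thyroxine, after its conversion to triiodothyronine, binds nuclear thyroid hormone receptors and sets off metamorphosis. In salamanders the tail is kept, unlike the tail of a frog tadpole, but it loses its fin, and its larval skin with large Leydig cells gives way to a cornified epidermis with multicellular glands. Keratins form the filaments of epithelial cells, mucins form the mucus that covers them, and Rab proteins and calpains take part in secretion and in the turnover of proteins.

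The tail libraries held 9059368 and 6106570 counts (neotenic tail 1 and 2) and 4530792 and 10747242 counts (metamorphosed tail 1 and 2), in which the 10 most abundant gene models took 9.65%, 16.0%, 22.7% and 15.5%. Levels are given as CPM, that is, counts scaled to a common library size after TMM normalization in edgeR. Genes were tested with the edgeR quasi-likelihood test in a model of all 61 libraries and 20216 genes, with Benjamini-Hochberg adjustment over all genes and a threshold of 0.05. The labels number the libraries by batch and name no animal, so that p-values measure the spread between libraries. An exact permutation test over the 4 tail libraries can give no 2-sided p below 0.333, so that the model took the spread from all tissues.

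The library labelled neotenic tail 2 went against its label. The skeletal muscle markers *Ckm*, *Tnnt3* and *Tnnc2* summed to 7695 CPM in neotenic tail 1, 3230 and 9124 CPM in the metamorphosed tails, and 13.4 CPM in neotenic tail 2, where 1 of the 3 was at 0. The stomach gland markers *Gkn1* and *Aqp4* summed to 18492 CPM in that library, against 5.03, 26.3 and 65.3 CPM in neotenic tail 1 and the metamorphosed tails. The smooth muscle markers *Myh11* and *Cnn1* summed to 26764 CPM in it, against 34.5, 1522 and 658 CPM.

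Among the stomach libraries, the one labelled neotenic stomach 1 held 12228 CPM of the stomach gland markers and 16.5 CPM of the skeletal muscle markers. The one labelled neotenic stomach 2 held 7.12 CPM and 2565 CPM of them, on the side of neotenic tail 1 in both. The 17 measured genes of the Hox and tail position list, which give cells their place along the body axis, summed to 43.3 CPM in neotenic tail 1, 67.7 and 55.7 CPM in the metamorphosed tails and 1.94 CPM in neotenic tail 2, and to 3.26 and 30.0 CPM in neotenic stomach 1 and 2. Whether the labels of the second neotenic tail and stomach libraries were exchanged was not tested, and the labels were kept. Every comparison is therefore given as labelled and again without neotenic tail 2. In the second fit (60 libraries, 20219 genes) 1 neotenic tail library remained, which the model takes to vary like the libraries of the other groups.

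**Figure D1:**
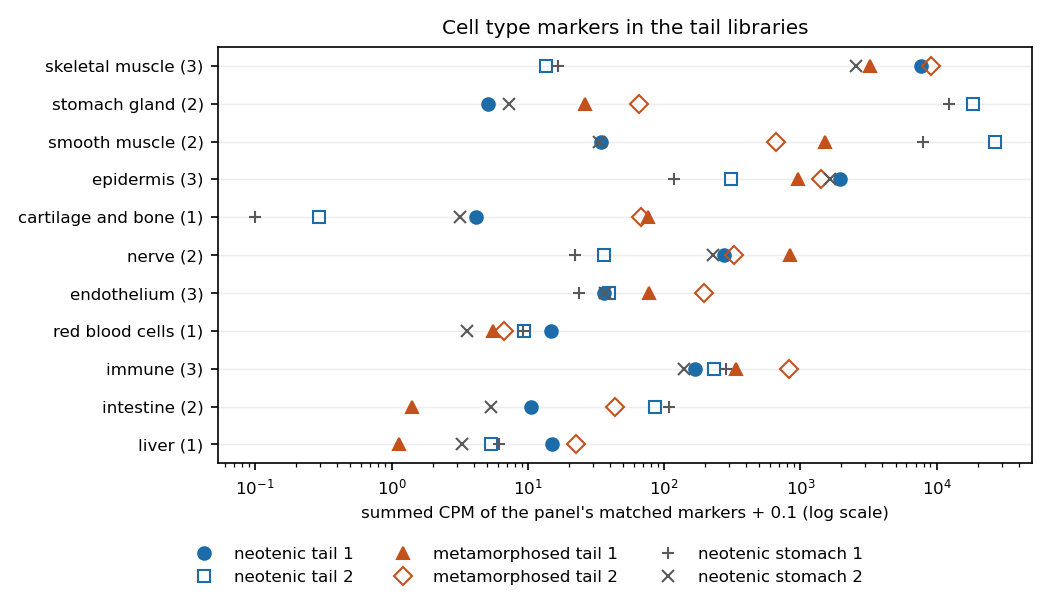
Summed CPM (plus 0.1, log scale) of the matched markers of each cell type, with the number matched in parentheses, in the 4 tail libraries and in the 2 neotenic stomach libraries. Neotenic tail 2 (open squares) lies with neotenic stomach 1 (plus signs) for stomach gland (18492 and 12228 CPM) and skeletal muscle (13.4 and 16.5 CPM), and neotenic tail 1 (filled circles) with neotenic stomach 2 (crosses) for stomach gland (5.03 and 7.12 CPM).

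The levels of some other marker panels also lay apart, which was not tested. Over all genes, 29.2% lay higher and 28.1% lower in both metamorphosed tails than in neotenic tail 1. Without neotenic tail 2, the metamorphosed tails held more of the cartilage marker *Acan* (76.1 and 67.7 CPM, against 4.09 CPM in neotenic tail 1), of the endothelial markers (77.9 and 196 CPM, against 36.1 CPM) and of the immune markers (334 and 822 CPM, against 169 CPM). The epidermis markers *Col17a1*, *Tp63* and *Epcam* were at 956 and 1418 CPM in the metamorphosed tails and at 1950 CPM in neotenic tail 1. The nerve markers (835 and 328 CPM, against 277 CPM) were higher and the red blood cell marker *Alas2* (5.47 and 6.64 CPM, against 14.6 CPM) lower in both metamorphosed tails, while neotenic tail 1 lay between them for the intestine and liver markers. The part of tissue makeup in the results below was not tested.

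As labelled, 145 genes (0.717% of those tested) differed between metamorphosed and neotenic tail, of which 73 (0.361%) rose and 72 (0.356%) fell. Without neotenic tail 2, 51 genes (0.252%) differed, of which 5 (0.0247%) rose and 46 (0.228%) fell. This split depended on the model, since DESeq2 called 176 genes higher and 135 lower without neotenic tail 2, and edgeR on the tail libraries alone 78 higher and 127 lower. The comparisons shared 34 genes, all in the same direction (31 lower and 3 higher), which was 23.4% of the first list and 66.7% of the second. Of the 145 genes, 135 had an unadjusted p under 0.05 in the same direction without neotenic tail 2, including all 73 that rose and 62 of the 72 that fell. Both comparisons use neotenic tail 1 and both metamorphosed tails, so that their agreement was largely fixed in advance. The median log2 fold change over all genes was 0.00 as labelled and 0.12 without neotenic tail 2.

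Both lists depended on each metamorphosed library. Without metamorphosed tail 1, 19 genes passed as labelled and 2 without neotenic tail 2, and without metamorphosed tail 2 the counts were 73 and 7. In the labelled comparison, 10 of the 145 genes still passed whichever metamorphosed library was left out, and of those with a symbol *Elovl6* and *Rab27a* did so. In the comparison without neotenic tail 2, *Rab27a* was the 1 gene of 51 that did so.

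Of the genes that fell in both comparisons, 15 had a symbol. *Krt12*, a type I keratin, was at 4562 CPM in neotenic tail 1, 3.69 CPM in neotenic tail 2, and 2.34 and 2.37 CPM in the metamorphosed tails. It lay above both metamorphosed libraries in both neotenic ones, and neotenic tail 1 stood far above the other 3. It fell by 9.91 ± 2.21 (log2, SE) as labelled and by 10.91 ± 1.95 without neotenic tail 2 (edgeR, adjusted p of 0.0274 and 0.0109), a 1921-fold fall in the second comparison.

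The keratin *Krt124* was at 3343 CPM in neotenic tail 1, 1.55 CPM in neotenic tail 2, 0.521 CPM in metamorphosed tail 1 and 3.16 CPM in metamorphosed tail 2. The states thus overlapped as labelled, and without neotenic tail 2 the gene was 1714-fold lower in metamorphosed tail (log2 SE 2.10, edgeR adjusted p of 0.0200). Of the 4 measured members of the keratin list, these 2 fell as labelled, against 0.356% of all genes. Both also fell without neotenic tail 2, and the list median was −6.83 as labelled and −7.82 without neotenic tail 2.

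*Krt4* did not pass the test in either comparison. It was at 10148 CPM in neotenic tail 1, 24.9 CPM in neotenic tail 2, 19.5 CPM in metamorphosed tail 1 and 657 CPM in metamorphosed tail 2. Metamorphosed tail 2 lay between the neotenic libraries. *Krt18*, a keratin of simple epithelia, was at 319, 4533, 904 and 1681 CPM in the same order. Keratin genes resemble each other, and fragments that match several genes were left out of the counts, so that the levels of single keratins are uncertain. *Krt5* and *Krt6a* were not analysed here, since no gene model carried their symbols. A gene model named alpha-keratin by its identifier lies outside the list. It passed the edgeR test as labelled, and in 7 of 12 alternative settings, and its levels are not given here.

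*Acrv1*, named for an acrosomal protein of mammalian sperm, was at 3385 CPM in neotenic tail 1 and 6.61 CPM in neotenic tail 2, and had 0 counts and 1 count in the metamorphosed tails. The ratio of counts was 34400 (95% exact interval 6173 to 1359000) without neotenic tail 2, and the fall passed the edgeR test in both comparisons (adjusted p of 0.0245 and 0.0110). *Znf423*, a zinc finger transcription factor, was at 3497, 7.58, 0.261 and 0.791 CPM in neotenic tail 1 and 2 and metamorphosed tail 1 and 2. Its fall was 6059-fold without neotenic tail 2 (log2 SE 2.02, edgeR adjusted p of 0.00307) and 3040-fold as labelled (adjusted p of 0.00957).

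*Has1*, which makes hyaluronan, was at 141 CPM in neotenic tail 1 and at most 0.583 CPM in the other 3 libraries. It fell 353-fold without neotenic tail 2 (log2 SE 1.56, edgeR adjusted p of 0.0110). *Them6* (the second of its gene models), a member of a thioesterase family, was at 70.4 and 1.36 CPM in the neotenic tails and had 0 counts in both metamorphosed tails, and was at least 90.0-fold lower without neotenic tail 2. For these genes neotenic tail 1 alone carried the high level, since neotenic tail 2 was within a few CPM of the metamorphosed libraries.

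Other genes were high in both neotenic tails, including the library with stomach markers. *Rab27a*, *Galnt6*, *B4galt3*, *Capn9*, *Rep15* and *Ifnlr1* are named because they fell in both comparisons, a choice made after their values were seen. *Rab27a*, a small GTPase that docks secretory granules and pigment granules at the cell membrane, was at 552 and 687 CPM in the neotenic tails and at 77.1 and 54.7 CPM in the metamorphosed tails. The states did not overlap, as in 66 of the 72 genes that fell as labelled, and the libraries of each state lay close to each other. It fell 9.40-fold as labelled and 8.38-fold without neotenic tail 2 (log2 SE 0.39 and 0.43, edgeR adjusted p of 2.08e-05 and 6.31e-04).

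*Elovl6*, which lengthens fatty acids, was at 121 and 166 CPM in the neotenic tails and at 18.5 and 18.7 CPM in the metamorphosed tails. Its fall was 7.71-fold as labelled and 6.48-fold without neotenic tail 2 (log2 SE 0.46 and 0.51, edgeR adjusted p of 0.00131 and 0.0110), with no overlap of the states. It was the 1 gene of 19 measured in the list of lipid storage and fatty acid synthesis to pass, where the list median was 0.14 and 0.61. Over all genes, 0.717% passed as labelled.

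Both enzymes among these genes that build sugar chains on proteins had the same order. *Galnt6*, which starts mucin-type chains, was at 231 and 135 CPM in the neotenic tails and 13.5 and 12.3 CPM in the metamorphosed tails, a fall of 14.2-fold as labelled and 17.9-fold without neotenic tail 2 (edgeR adjusted p of 0.0175 and 0.0207). *B4galt3*, a galactosyltransferase, was at 265 and 168 CPM against 27.9 and 36.8 CPM, a fall of 6.69-fold and 8.19-fold (edgeR adjusted p of 0.00415 and 0.0109). In both genes the states did not overlap. *Galnt7*, of the same family as *Galnt6* and chosen after its values were seen, was at 169 and 124 CPM against 30.7 and 48.2 CPM and fell as labelled (3.71-fold, edgeR adjusted p of 0.0292), with an adjusted p of 0.0569 without neotenic tail 2.

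*Capn9*, a calpain that in mammals is found in the digestive tract, was at 1054 and 1044 CPM in the neotenic tails and 7.03 and 64.4 CPM in the metamorphosed tails. It fell 29.2-fold as labelled and 29.4-fold without neotenic tail 2 (edgeR adjusted p of 0.00780 and 0.0202). *Capn13*, a further calpain, was at 6.78 and 11.9 CPM and had 0 counts in both metamorphosed tails, at least 8.67-fold lower without neotenic tail 2.

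*Casp6*, a caspase of programmed cell death, was at 384 and 71.9 CPM in the neotenic tails and 14.1 and 49.7 CPM in the metamorphosed tails. It fell by 2.83 ± 0.71 (log2, SE) as labelled and by 3.58 ± 0.73 without neotenic tail 2 (edgeR adjusted p of 0.0482 and 0.0202), as the 1 of 15 measured genes of the programmed cell death list to pass. Over all genes, 0.717% passed as labelled. *Rep15*, which binds Rab15, and *Ifnlr1*, a subunit of the interferon lambda receptor, also fell in both comparisons (31.0-fold and 28.6-fold without neotenic tail 2), with no overlap of the states.

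**Figure D2:**
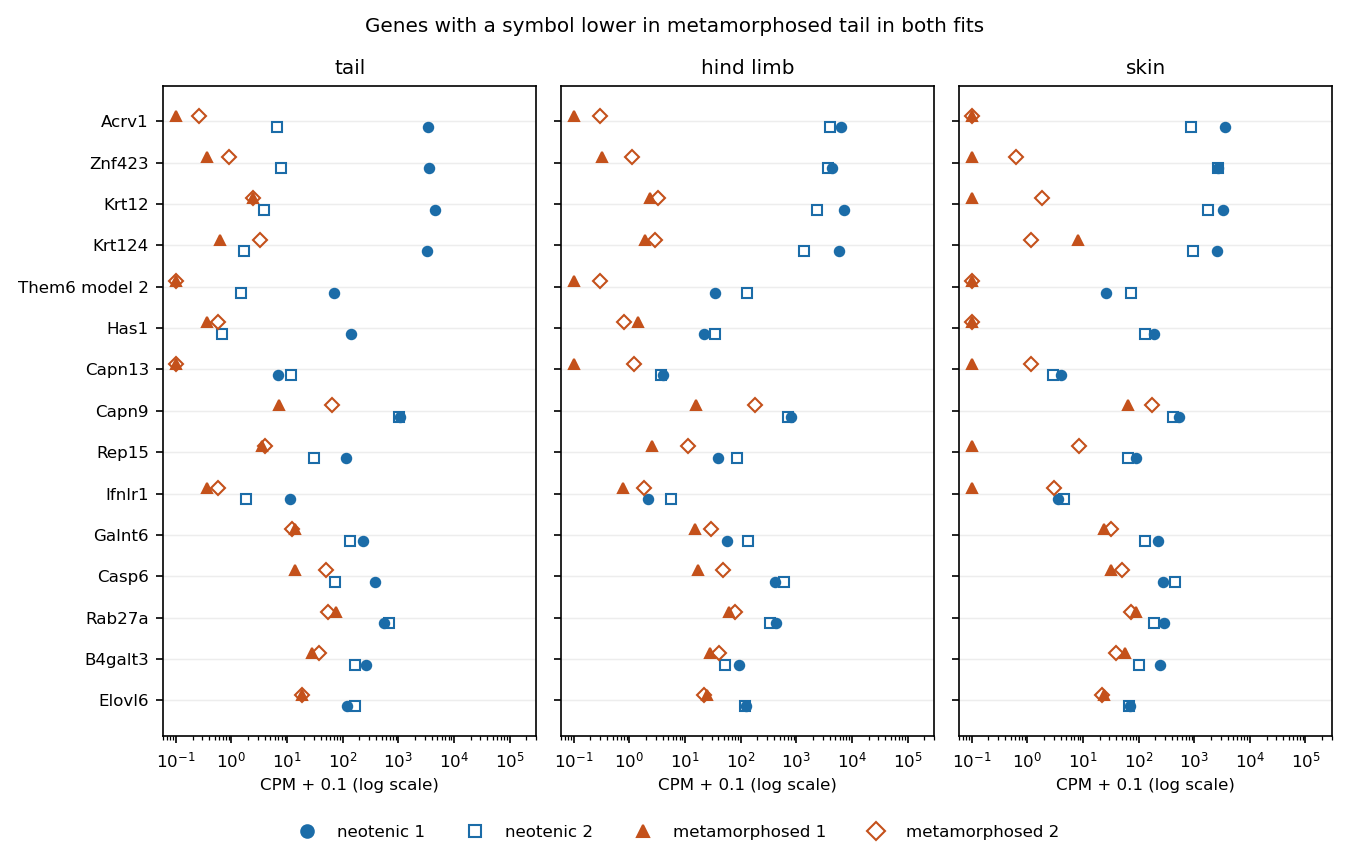
CPM (plus 0.1, log scale) of the 15 genes with a symbol that fell in both comparisons, in each neotenic and metamorphosed library of tail, hind limb and skin. In the tail, neotenic tail 2 (open squares) lies with the metamorphosed libraries for *Krt12* (3.69 CPM) and with neotenic tail 1 for *Rab27a* (687 CPM).

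Other genes with a symbol fell without neotenic tail 2 and had not passed as labelled. *Qrich2*, which in mammals is needed for the sperm tail, was at 201 CPM in neotenic tail 1, 0.194 CPM in neotenic tail 2 and 0 in both metamorphosed tails, at least 257-fold lower without neotenic tail 2 (edgeR adjusted p of 0.0229, and 0.0588 as labelled). *Muc4*, a membrane mucin, has several gene models. The second model was at 97.7 CPM in neotenic tail 1, 0.389 CPM in neotenic tail 2 and 0 in the metamorphosed tails, and was at least 125-fold lower (adjusted p of 0.0435, and 0.0653 as labelled).

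The first *Muc4* model was at 108, 0, 0 and 0.316 CPM in neotenic tail 1 and 2 and metamorphosed tail 1 and 2, with an adjusted p of 0.0556 without neotenic tail 2. *Abca12*, which carries lipids to the skin barrier, was at 113, 0.194, 0.521 and 0.633 CPM in the same order. It fell 188-fold without neotenic tail 2 (log2 SE 1.70, edgeR adjusted p of 0.0387), the 1 of 9 measured genes of the cornification list to do so, and had an adjusted p of 0.0831 as labelled. In all of these genes neotenic tail 2 was as low as the metamorphosed libraries. *Ugp2* (second model), which makes UDP-glucose, and *Ccdc112*, both chosen after their values were seen, fell 51.6-fold and 14.8-fold.

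Other genes fell as labelled and not without neotenic tail 2. *Muc5ac* and *Muc5b*, which form gel mucus and are abundant in the stomach, were at 5114 and 4108 CPM in neotenic tail 2. In neotenic tail 1 they were at 105 and 115 CPM, in metamorphosed tail 1 at 3.65 and 2.08 CPM and in metamorphosed tail 2 at 35.3 and 12.7 CPM. Both genes were thus also lower in both metamorphosed tails than in neotenic tail 1, as were 28.1% of all genes. Their fall was 133-fold and 282-fold as labelled (edgeR adjusted p of 0.0463 and 0.0274) and 5.33-fold and 15.3-fold without that library, with adjusted p of 0.739 and 0.460.

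*Muc1* was at 63.4 and 785 CPM against 11.7 and 15.2 CPM, with an adjusted p of 0.0292 as labelled and 0.621 without neotenic tail 2. The mucus and gland secretion list thus had 3 of 11 measured genes lower as labelled, against 0.356% of all genes. No gene of the list passed without neotenic tail 2. Its median was −3.21 as labelled and −2.23 without neotenic tail 2. *Capn8*, at 7.72 and 1266 CPM in the neotenic tails and 0.261 and 2.37 CPM in the metamorphosed tails, moved in the same way (444-fold as labelled, 5.37-fold without). Of the 72 genes that fell as labelled, 22 were more than 5-fold higher in neotenic tail 2 than in neotenic tail 1, 17 the reverse, and 33 were within 5-fold.

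*Dsg2*, a desmosomal cadherin that holds epithelial cells together, was at 578 and 517 CPM in the neotenic tails and 108 and 48.6 CPM in the metamorphosed tails. Its fold was nearly the same in both comparisons (6.99 and 7.38), and it passed as labelled (edgeR adjusted p of 0.0488) and not without neotenic tail 2 (0.148). *Sytl5*, an effector of Rab27 proteins chosen after its values were seen, was at 70.8 and 92.7 CPM against 11.5 and 14.7 CPM (adjusted p of 0.0450 and 0.230). Both genes were lower in each metamorphosed library than in each neotenic one, as were 66 of the 72 genes that fell as labelled. The call of *Dsg2* as labelled held in 3 of 12 alternative settings.

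Of the 73 genes that rose as labelled, 3 also passed the edgeR test in the model of all tissues without neotenic tail 2. These 3 carry no symbol, and *Lgals1* was not among them. *Lgals1* encodes galectin-1, a lectin that binds galactosides. It was at 2.92 and 0.971 CPM in the neotenic tails and at 13501 and 4496 CPM in the metamorphosed tails. Both metamorphosed libraries thus lay far above both neotenic ones. The rise was 12.12 ± 2.54 (log2, SE) as labelled (edgeR adjusted p of 0.0175) and 11.58 ± 3.47 without neotenic tail 2 (adjusted p of 0.226). A gene model named galectin-3 by its identifier was at 2.22 CPM and 0 against 2600.2 and 666 CPM (adjusted p of 0.0187 and 0.213) and was chosen after its values were seen.

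*Selenbp1*, a selenium-binding oxidase, was at 36.1 and 0.583 CPM in the neotenic tails and 5163 and 984 CPM in the metamorphosed tails, a 166-fold rise as labelled (edgeR adjusted p of 0.0204, and 0.211 without neotenic tail 2). *Spink1*, a trypsin inhibitor, was at 1.52 and 0.194 CPM against 584 and 176 CPM, a 405-fold rise (adjusted p of 0.00556 and 0.110). *Rdd4* was at 12.5 and 0.389 CPM against 3398 and 1870.4 CPM, a 399-fold rise (adjusted p of 0.0292 and 0.295). In these genes metamorphosed tail 1 was the highest library and neotenic tail 2 the lowest.

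*Otc*, ornithine transcarbamylase of the urea cycle, was higher in metamorphosed tail 2 instead. It was at 1.87 CPM and 0 in the neotenic tails and at 97.2 and 436 CPM in the metamorphosed tails, a 255-fold rise as labelled (edgeR adjusted p of 0.0142, and 0.190 without neotenic tail 2). *Rgs4*, a regulator of G protein signals, was at 4.56 and 12.2 CPM against 46.9 and 634 CPM (40.9-fold, adjusted p of 0.0338 and 0.203). Of the 73 genes that rose as labelled, 36 were more than 2-fold higher in metamorphosed tail 1 than in metamorphosed tail 2, and 16 the reverse.

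The genes of signalling and of the skin matrix described next were chosen after their values were seen. *Sostdc1*, a secreted inhibitor of BMP and Wnt signals, was at 2.10 and 0.389 CPM in the neotenic tails and 39.9 and 22.5 CPM in the metamorphosed tails (23.7-fold as labelled, edgeR adjusted p of 0.00656, and 0.134 without neotenic tail 2). *Ptges*, which makes prostaglandin E, was at 20.1 and 35.4 CPM against 574 and 268 CPM (15.2-fold, adjusted p of 0.0482 and 0.263). *Jag2*, a ligand of Notch, was at 22.2 and 16.9 CPM against 122 and 67.2 CPM (4.84-fold, adjusted p of 0.0274 and 0.272). None of the 3 overlapped between the states, which held for all 73 genes that rose as labelled.

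*Bcl6*, a transcriptional repressor, rose from 2.34 and 2.91 CPM to 77.4 and 38.4 CPM as labelled (4.46 ± 1.10 on the log2 scale with SE, edgeR adjusted p of 0.0450, and 0.305 without neotenic tail 2). *Aldh3b1*, an aldehyde dehydrogenase, was at 26.2 and 27.0 CPM against 194 and 173 CPM (6.88-fold, adjusted p of 0.0156 and 0.148). *Ecm1*, a matrix protein of skin, was at 148 and 75.8 CPM against 430.4 and 931 CPM (6.08-fold, adjusted p of 0.0274 and 0.329). The 4 libraries again did not overlap between states in any of them.

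*Slc23a1*, a vitamin C transporter, rose 26.1-fold as labelled (0.935 and 0.777 CPM against 30.2 and 15.8 CPM, edgeR adjusted p of 0.0358). *Elfn1* rose 120-fold (0.234 and 0.583 CPM against 82.1 and 14.1 CPM, adjusted p of 0.0264). *Zfp982* and *Ppm1h*, a protein phosphatase, had 3 and 2 counts in all in the neotenic tails, and the ratios of counts were 94.8 (95% exact interval 32.0 to 464) and 28.3 (7.37 to 242). Their adjusted p without neotenic tail 2 lay between 0.189 and 0.302.

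A gene model that its identifier names tecta.2.S, after the family of alpha-tectorin, a matrix protein of the inner ear, was chosen after its values were seen. It was at 156 and 20.6 CPM in the neotenic tails and at 96021 and 10088 CPM in the metamorphosed tails, a 599-fold rise as labelled (edgeR adjusted p of 0.0312, and 0.330 without neotenic tail 2). The metamorphosed libraries differed widely from each other, and both lay above the neotenic ones. A model named cytokeratin, chosen likewise, had 1 count in each neotenic tail and was at 35.7 and 59.6 CPM in the metamorphosed tails, a ratio of counts of 346 (95% exact interval 95.5 to 2869, adjusted p of 0.00893 as labelled and 0.102 without).

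*Tex2* was the 1 gene with a symbol that rose without neotenic tail 2. It was at 28.4 CPM in neotenic tail 1 and 206 and 104 CPM in the metamorphosed tails, a 5.45-fold rise (log2 SE 0.55, edgeR adjusted p of 0.0410). Neotenic tail 2 was at 89.4 CPM, and the adjusted p as labelled was 0.153.

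**Figure D3:**
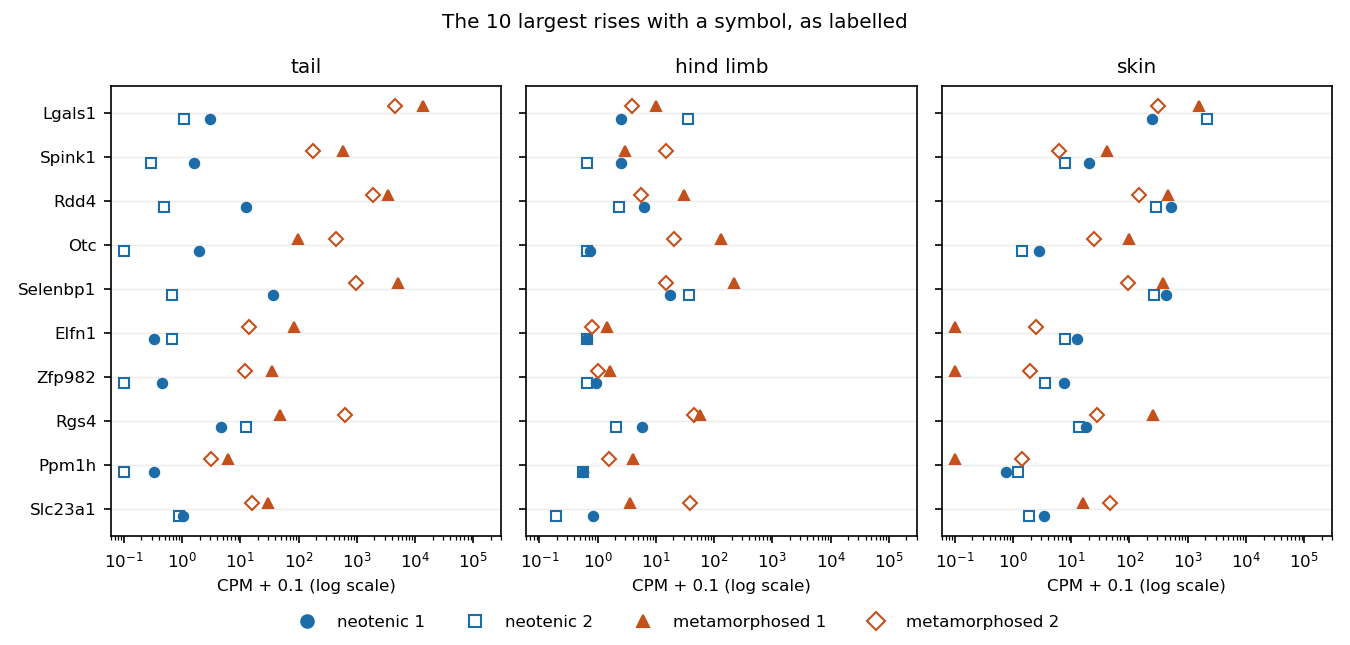
CPM (plus 0.1, log scale) of the 10 genes with a symbol that rose most as labelled, in each neotenic and metamorphosed library of tail, hind limb and skin. *Lgals1* is at 13501 and 4496 CPM in the metamorphosed tails, at most 35.0 CPM in all hind limb libraries, and at 241 and 2104 CPM in neotenic skin against 1555 and 307 CPM in metamorphosed skin.

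The tail changes were set beside those of hind limb and skin, which had 2 libraries per state. Metamorphosed skin 1 held 69278 counts, the lowest total of the series, so that 1 count in it was worth 8.06 CPM. All 46 genes that fell in the tail without neotenic tail 2 were lower in both metamorphosed hind limb libraries than in both neotenic ones, and all 46 in the skin, against 16.0% of all genes for hind limb and 38.0% for skin. Of the 72 that fell as labelled, 52 did so in hind limb and 54 in skin. The study describes 2 animals per state, so that tail, hind limb and skin libraries may come from the same animals. The hind limb and skin libraries were also part of the models that called these genes, so that this overlap is not an independent test.

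*Krt12* was at 7346 and 2402 CPM in neotenic hind limb and 2.23 and 3.23 CPM in metamorphosed hind limb, and at 3351 and 1735 CPM in neotenic skin and 0 and 1.74 CPM in metamorphosed skin. *Rab27a* was at 430.1 and 333 CPM against 62.3 and 78.2 CPM in hind limb, and at 281 and 186 CPM against 88.6 and 73.7 CPM in skin. *Rab27a* was separated by state in all 3 tissues. *Krt12* was widely separated in hind limb and skin. In the tail its separation was narrow, since the second neotenic tail library lay close to the metamorphosed ones. The first neotenic tail library alone carried its high level there. Over all genes, 15.7% were lower without overlap in metamorphosed tail as labelled, 16.0% in hind limb and 38.0% in skin. *Krt4*, which did not pass in the tail, was at 12503 and 11786 CPM against 35.8 and 148 CPM in hind limb, without overlap.

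Of the 73 genes that rose as labelled, 46 were higher without overlap in metamorphosed hind limb (20.1% of all genes) and 19 in metamorphosed skin (8.40%). A further 9 were lower without overlap in metamorphosed skin, where 38.0% of all genes were. *Otc* was among those higher in hind limb, at 0.644 and 0.557 CPM against 133 and 20.1 CPM, and in skin, at 2.65 and 1.32 CPM against 96.7 and 24.2 CPM. *Bcl6* followed the same order in both tissues, with 4.97 and 2.69 CPM against 52.3 and 22.4 CPM in hind limb and 5.23 and 5.27 CPM against 48.3 and 13.2 CPM in skin.

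*Sostdc1* did not, with 5.52 and 4.18 CPM in neotenic hind limb and 5.14 and 3.61 CPM in metamorphosed hind limb. *Selenbp1* and *Rdd4* were already at 418 and 258 CPM and at 511 and 289 CPM in neotenic skin, against 371 and 93.9 CPM and 467 and 146 CPM in metamorphosed skin. The levels of these 3 genes in hind limb or skin overlapped between the states.

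The difference between the tail effect and the hind limb effect was tested for every gene in the same models. It passed for 0 of 20216 genes as labelled (edgeR, 1548 at an unadjusted p under 0.05, and 246 passed with DESeq2) and for 0 of 20219 without neotenic tail 2 (606 unadjusted, 28 with DESeq2). The difference from the skin effect passed for 8 genes as labelled (0.0396%, with 2735 unadjusted) and for 0 without neotenic tail 2 (1627 unadjusted, 48 with DESeq2). The calls thus differed between the tools, and the 0 of edgeR does not show that the tissues changed alike.

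The 31 gene lists were described by their counts and medians, beside the median of all genes. Apart from the lists named above and *Dsg2* of the epidermal adhesion list (1 of 29 measured genes as labelled, 0 without neotenic tail 2), no list held a gene that passed in either comparison. The lists of smooth muscle and stomach gland genes had medians of −2.06 and −6.42 as labelled and of 2.31 and 2.95 without neotenic tail 2. In both metamorphosed tails 9 of 12 smooth muscle and 2 of 5 stomach gland genes were higher than in neotenic tail 1, as were 29.2% of all genes. In neither list was a gene lower in both. *Myh11*, the myosin of smooth muscle, was at 22.1 CPM in neotenic tail 1, 11549 CPM in neotenic tail 2, and 909 and 207 CPM in the metamorphosed tails. Its direction differed between the comparisons, and its edgeR adjusted p was 0.306 and 0.343.

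The list of cell division genes was lower in metamorphosed tail in both comparisons, with a median of −0.87 over 28 measured genes as labelled and −1.43 without neotenic tail 2, and with 0 genes past the adjusted threshold. The proliferation marker *Mki67* was at 276 and 131 CPM in the neotenic tails and 110 and 62.0 CPM in the metamorphosed tails (unadjusted p of 0.0110 and 0.00280, edgeR adjusted p of 0.245 and 0.263). *Kif11*, a spindle motor, was at 66.4 and 15.5 CPM against 11.7 and 8.22 CPM. In both genes each metamorphosed library was below each neotenic one, and 9 of the 28 genes were lower without overlap as labelled (15.7% of all genes) and 24 without neotenic tail 2 (28.1% of all genes).

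Several matrix lists had positive medians. The list of matrix breakdown genes had a median of 1.28 as labelled and 1.55 without neotenic tail 2, with 8 and 4 of 19 genes at an unadjusted p under 0.05, all higher, and 0 past the adjusted threshold. Over all genes, 2371 of 20216 and 1554 of 20219 had an unadjusted p under 0.05 in either direction. *Mmp2*, a gelatinase, was at 133 and 169 CPM in the neotenic tails and 355 and 1328 CPM in the metamorphosed tails (edgeR adjusted p of 0.182 and 0.549). *Mmp14*, which activates *Mmp2* on the cell surface, was at 24.8 and 17.9 CPM against 58.9 and 85.9 CPM (adjusted p of 0.102 and 0.551). Both genes were higher in each metamorphosed library than in each neotenic one, as were 17.0% of all genes.

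The cartilage and bone list had a median of 1.81 and 1.97 over 17 genes. *Acan*, the aggrecan core protein, was at 4.09 and 0.194 CPM in the neotenic tails and 76.1 and 67.7 CPM in the metamorphosed tails (edgeR adjusted p of 0.220 and 0.710). *Col9a1*, a cartilage collagen, was at 10.1 and 0.194 CPM against 88.3 and 51.4 CPM (adjusted p of 0.229 and 0.726). The fibrillar collagen list had a median of 0.69 and 0.93, and the fibroblast and tendon list of 0.91 and 0.80. *Postn* and *Ptx3*, genes of fibroblasts, were at 1930 and 432 CPM in neotenic tail 1, at 31.1 and 9.71 CPM in neotenic tail 2, and at 1226 and 300.4 CPM and 753 and 499 CPM in metamorphosed tail 1 and 2.

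The endothelial list had a median of 1.38 over 16 genes as labelled, of which 10 were higher in both metamorphosed tails than in both neotenic ones (17.0% of all genes). *Kdr*, a receptor of vascular endothelial growth factor, was at 8.53 and 5.63 CPM against 29.4 and 58.5 CPM (edgeR adjusted p of 0.179 and 0.645). The skeletal muscle list of 40 genes had a median of 2.01 as labelled and 1.22 without neotenic tail 2. *Csrp3*, a protein of the sarcomere's Z disc, was at 70.6, 1.36, 565 and 1620.2 CPM in neotenic tail 1 and 2 and metamorphosed tail 1 and 2, and the fast myosin *Myh4* was at 241, 0.583, 2.87 and 5.38 CPM (unadjusted p of 0.00200 without neotenic tail 2, edgeR adjusted p of 0.223).

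The list of thyroid hormone response and handling held 17 measured genes, with a median of 0.51 and 0.42. *Dio3*, which inactivates thyroid hormone, was at 16.8 CPM and 0 in the neotenic tails and 4.17 and 68.8 CPM in the metamorphosed tails. *Klf9*, a direct target of the hormone's receptor in frogs, was at 9.24 and 2.53 CPM against 5.21 and 17.2 CPM, and both genes overlapped between the states. *Hr*, a corepressor of hormone receptors, had 0 counts in both neotenic tails and was at 2.34 and 1.42 CPM in the metamorphosed tails, at least 3.23-fold higher as labelled (edgeR adjusted p of 0.194). *Thrb* was not analysed here.

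The epidermal adhesion list had a median of −0.28 and −0.65, the cornification list of 0.35 and −0.15 and the programmed cell death list of −0.13 and −0.48. *Col17a1*, which anchors basal cells, was at 710.2, 5.63, 555 and 904 CPM in neotenic tail 1 and 2 and metamorphosed tail 1 and 2. *Itga6*, an integrin of basal cells, was at 409 and 388 CPM in the neotenic tails and 176 and 107 CPM in the metamorphosed tails (unadjusted p of 0.00629 and 0.0155, edgeR adjusted p of 0.194 and 0.471). The ammonium transporter *Rhcg*, a gene of ionocytes, was at 34.7, 0.971, 10.2 and 27.8 CPM in the first order. Neotenic tail 2 was the lowest library for *Col17a1* and *Rhcg*, and the states did not overlap for *Itga6*.

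The list of cytosolic ribosomal protein genes had a median of 0.75 and 1.03 over 47 genes, and that of heat shock and protein folding genes 0.43 and 0.86. The nerve and spinal cord list had a median of 1.16 and 1.14, the immune list 0.98 and 1.00, the intestine epithelium list 1.59 and 2.46 and the Hox and tail position list 1.45 and 0.79. Medians of the lists of muscle energy supply, muscle stem cells, muscle breakdown, ion transport, fin and regeneration signalling, red blood cells, pigment cells, liver plasma proteins and the mitochondrial respiratory chain lay between −0.02 and 0.98 as labelled and between 0.00 and 0.73 without neotenic tail 2. None of these lists held a gene with an adjusted p under 0.05. *Axin2*, a target of Wnt signals, had the lowest p of the regeneration list, at 10.4 and 2.72 CPM in the neotenic tails and 42.2 and 25.6 CPM in the metamorphosed tails (edgeR adjusted p of 0.0850 and 0.617).

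**Figure D4:**
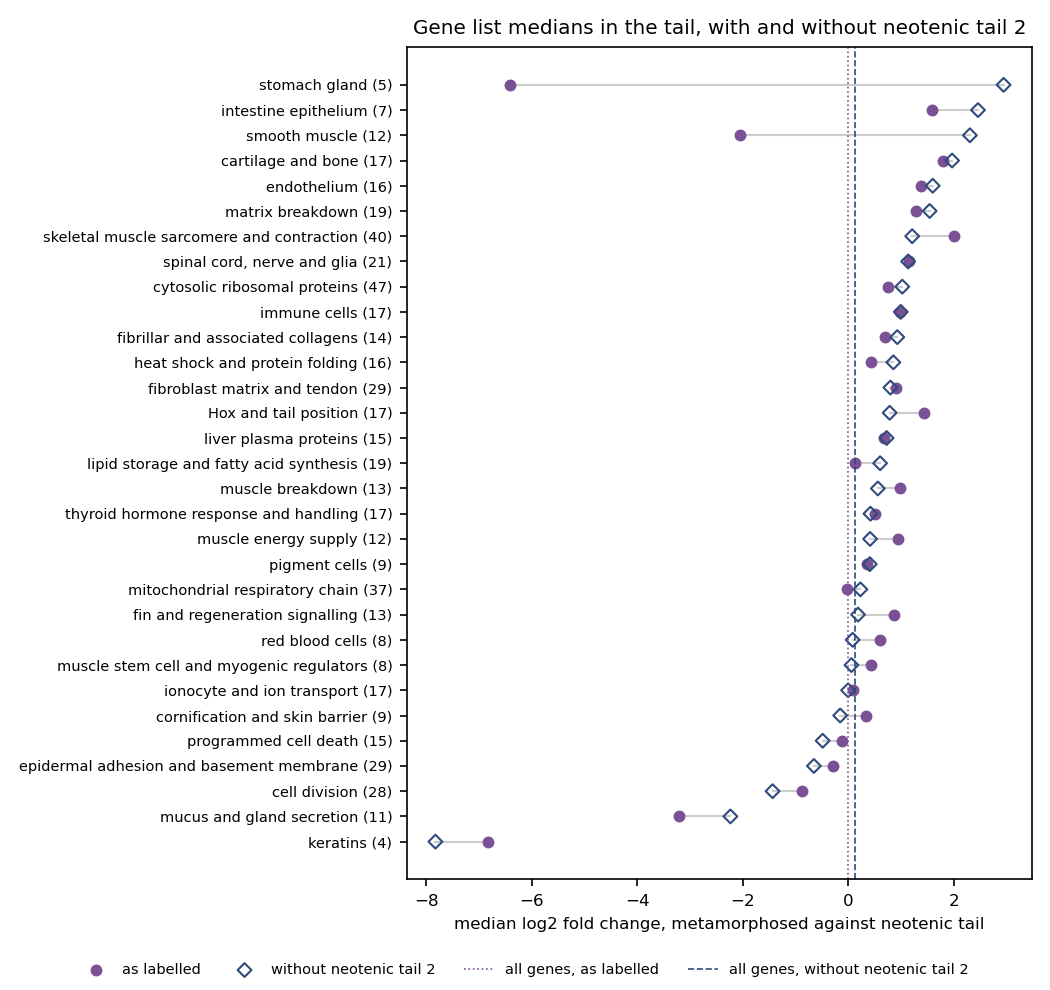
Median log2 fold change of each gene list, metamorphosed against neotenic tail, as labelled (filled circles) and without neotenic tail 2 (open diamonds), with the number of genes measured in parentheses and the medians of all genes (0.00 and 0.12) as lines. The smooth muscle and stomach gland lists change sign (−2.06 to 2.31 and −6.42 to 2.95), and keratins, mucus and cell division lie below 0 in both.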

How the data were processed

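RNA purified with TRIzol had been made into tagmentation libraries. The authors deposited raw counts per gene model, from reads aligned with STAR and counted with featureCounts 1.6.0 (AmexG annotation 3.0.0, per the labels and file headers), without strand and without normalization. 1 count column was used per library. Columns of other series: 0. The count column of metamorphosed tail 1 names no tissue and was assigned by its sample. Symbols came from the gene identifiers, of which 13702 of 23251 carried one. Of several models with 1 symbol, the most abundant is named without a number. The members and lists were chosen with earlier results of these data known.

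Counts were tested with edgeR 4.0.16 in R 4.3.3 (TMM, filterByExpr, quasi-likelihood test, 1 coefficient per state and tissue, no covariate). Standard errors are the log2 fold change over the square root of F. Groups at 0 counts were given a floor of 3 counts per library. Groups with 1 to 3 counts in all have exact 95% intervals, and both cover counting error only. A count of 1 was worth at most 0.261 CPM in the tail libraries. The genes named were the 10 largest rises and falls with a symbol in each comparison. They had an adjusted p under 0.05, at least 1 CPM in the higher state and no overlap. Up to 4 genes per list with the lowest p in either comparison were added, and preset genes of the study. Where no list member passed, members with the highest level were added. From each contrast came the 5 lowest p among genes called in a tail comparison. Other genes were chosen after their values were seen. Of 822 listed symbols, 551 had a model. DESeq2 1.42.0, other scaling, no filter, summed models, tail libraries alone, replicate blocks and leaving out libraries were alternatives. The models were tested on simulated data, in which genes were changed only at a smaller spread than that of these data. The recovery of changes at the spread of these data was not tested. CPM and tables used Python 3.11.15.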

Additional observations from a re-analysis of the deposited data

Results flagged for a closer look

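The tail effect (metamorphosed minus neotenic, log2) differed from the skin effect for 8 genes as labelled, by the edgeR test of the difference, and for 0 without neotenic tail 2, where their adjusted p lay between 0.144 and 0.550. Of those with a symbol, *Slc22a31* differed by 6.71 ± 1.26 (SE, adjusted p of 0.0294). It was at 12.3 and 11.1 CPM in the neotenic tails and 122 and 10.1 CPM in the metamorphosed tails, so that 1 library carried the tail rise, and at 29.5 and 18.1 CPM in neotenic skin against 0 and 1.34 CPM in metamorphosed skin. *Ppwd1* (second model) differed by 9.49 ± 1.70 (adjusted p of 0.0224). It was at 5.84 and 6.02 CPM in the neotenic tails and 7.30 and 6.48 CPM in the metamorphosed tails, and had 0 counts in both metamorphosed skin libraries, of which the first was shallow. Of the other 6, which carry no symbol, 5 were higher in metamorphosed tail beyond the change in skin, and the model named plastin-1 was lower (402 CPM in neotenic tail 2, 28.1 CPM in neotenic tail 1). The part of the shallow skin library in these differences was not tested beyond leaving it out. After that 1 metamorphosed skin library remained, and most of the differences that passed were lower in the tail rather than higher.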

How the results depend on the processing

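With 1 tail or skin library left out, between 19 and 153 genes passed as labelled (145), between 2 and 7 without neotenic tail 2 (51), between 0 and 198 for tail against hind limb (0) and between 0 and 323 for tail against skin (8). The lowest counts as labelled came without metamorphosed tail 1, and those of the contrasts without neotenic tail 1 were the highest (198 and 323). DESeq2 gave 634 genes as labelled, 311 without neotenic tail 2, 246 for hind limb and 372 for skin. With only the tail libraries in the model the counts were 0 (894 at an unadjusted p under 0.05) and 205, and without neotenic stomach library 2 they were 250 and 107. As labelled, 50.3% of the calls were higher, against 40.0% without that stomach library, 73.7% and 83.6% without metamorphosed tail 1 and 2, and 32.7% without neotenic tail 1. Without neotenic tail 2, 9.80% were higher, against 56.6% with DESeq2 (176 higher, 135 lower), 38.0% with only the tail libraries (78 higher, 127 lower), and 20.9% with a block within each state.

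With the replicate number as a block, 155 genes passed as labelled, 91 without neotenic tail 2, 3 for hind limb and 15 for skin, and 267 and 163 passed in the tail with a block within each state. Deviations of same-numbered tail libraries correlated at −0.0525 between the states, and 3 of 12 tissues exceeded 0.1. The tail value cannot show whether the numbers pair, since neotenic tail 2 held stomach markers. The numbers were not read as pairs across the states. With a block within each state the common dispersion as labelled was 0.242, against 0.313 without a block, and an effect of the number within a state was not excluded.

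For the genes named, 3908 of 4145 values under alternatives stayed on the same side of the threshold. Among these were 176 uncalled values that changed sign. A further 151 values lost the call and 85 gained it. The 3908 include values of genes uncalled in the main fits, and genes called as labelled held their call less often. Of 12 alternatives as labelled, *Dsg2* passed in 3, *Ptges* in 5, *Krt12* in 8, and *Elovl6* and *Rab27a* in 11 each. *Krt124* as labelled ranged from −11.66 (without metamorphosed tail 2) to 0.34 (without neotenic tail 1, adjusted p of 1.0), a reversal. Setting genes at 0 counts to their bound moved 13 list medians by more than 0.1 (at most 0.48). The causes were not tested. Of the tail libraries, metamorphosed tail 1 had the lowest depth, the spread between libraries (common dispersion 0.313 and 0.304) is shared over all tissues, and with 2 tail libraries per state a gene that missed the threshold was not shown to be alike in both.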
